A study of Mus musculus with 106 samples.

Results

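Acetylation of lysine 27 on histone H3 (H3K27ac) was compared between macrophages grown from the bone marrow of diabetic mice and of control mice, after both had been stimulated with lipopolysaccharide (LPS) and interferon-γ (IFN-γ). The 12 lists of peaks used were chosen by their titles, 6 labelled diabetic and 6 labelled control, out of 106 samples in the series. The series as a whole mapped H3K27ac and trimethylation of lysine 4 (H3K4me3) by chromatin immunoprecipitation and sequencing (ChIP-seq) in hematopoietic stem cells and in bone marrow-derived macrophages (BMDMs). The question of the comparison was whether diabetes leaves a chromatin record in macrophages that have since been kept in normal glucose.

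All mice were C57BL/6J, 12 to 14 weeks old when assigned to the groups. The diabetic group had received streptozotocin, which destroys insulin-producing cells, in daily doses of 42 to 45 mg/kg for 5 days, and marrow was taken 6 weeks later from animals whose blood glucose was above 13.9 mmol/L. Marrow of both groups was differentiated for 7 days in 5 mmol/L glucose with 20% medium conditioned by L929 cells, a source of macrophage colony-stimulating factor, and then given 100 ng/mL LPS with 10 ng/mL IFN-γ. The study's general culture methods give 16 h of stimulation in that glucose, and its ChIP-seq methods state no time. Both groups were therefore in the same glucose for the whole culture, and the difference under study was the animal from which the marrow came. The study's methods define replicates as individual animals, while the labels do not tie libraries to animals, and the p-values below measure the spread between these libraries.

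H3K27ac marks active promoters and enhancers and is removed by histone deacetylases. In macrophages, LPS acts through Toll-like receptor 4 and NF-κB and IFN-γ acts through its own receptor, and together they switch on cytokines, chemokines and interferon-induced genes, in part from distal enhancers that gain H3K27ac on stimulation. Lineage factors such as PU.1, C/EBP and RUNX1 hold the enhancers of the macrophage open before any stimulus arrives.

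Each list was shortened to its 20000 peaks with the highest −log10 p, and peaks were then numbered from rank 1, the strongest. A gene was given the rank of its best peak within 1000 bp of any of its transcription start sites, and a distal region, more than 1000 bp from every annotated start site, the rank of the best peak that touched it. The rank score is log2 of 20001 divided by the rank, and is 0 where the shortened list held no such peak. In medians, a library without a peak counted as rank 20001. A difference of 1 in rank score corresponds to a rank number lower by a factor of 2. All differences are given as diabetic minus control, and positions are those of GRCm38. Because a list ranks the peaks of a mixed cell population, fewer marked cells and less mark per cell cannot be told apart.

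Sequences from the promoters and regions at the extremes of the comparison are given first. The 4 promoter stretches below are the 250 bases before the RefSeq start (GRCm38.p6), 5′ to 3′ on the gene's strand, with every CG in capitals. Hook2 and Cela1 had the smallest p among promoters ranked higher and lower in diabetic libraries, Txndc9 stands for the CpG-rich promoters that were common among those held by all libraries, and Il1b is an inflammatory gene without a promoter peak in any shortened list. They lie at chr8:84990373-84990622 on the plus strand (Hook2) and, on the minus strand, at chr15:100687921-100688170 (Cela1), chr1:37997209-37997458 (Txndc9) and chr2:129371140-129371389 (Il1b). The capitals mark 15 CG in Hook2, 6 in Cela1, 21 in Txndc9 and 2 in Il1b. The Cela1 stretch lies before another start of the gene than the one within 1000 bp of its tested peak.
Hook2: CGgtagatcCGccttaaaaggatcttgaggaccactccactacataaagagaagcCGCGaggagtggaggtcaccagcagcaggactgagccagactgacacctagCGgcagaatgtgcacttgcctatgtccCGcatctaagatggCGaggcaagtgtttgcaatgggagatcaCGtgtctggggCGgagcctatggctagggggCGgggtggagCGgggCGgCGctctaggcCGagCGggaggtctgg
Cela1: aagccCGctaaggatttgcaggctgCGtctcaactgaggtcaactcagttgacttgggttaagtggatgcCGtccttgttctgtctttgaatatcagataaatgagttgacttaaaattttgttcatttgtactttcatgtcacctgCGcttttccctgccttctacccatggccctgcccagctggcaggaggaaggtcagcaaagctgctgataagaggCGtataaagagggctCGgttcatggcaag
Txndc9: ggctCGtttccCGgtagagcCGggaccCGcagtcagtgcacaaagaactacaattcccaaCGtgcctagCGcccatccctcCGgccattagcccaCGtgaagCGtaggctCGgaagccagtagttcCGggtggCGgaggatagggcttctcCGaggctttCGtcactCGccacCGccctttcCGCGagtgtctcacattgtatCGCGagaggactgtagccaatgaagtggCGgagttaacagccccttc
Il1b: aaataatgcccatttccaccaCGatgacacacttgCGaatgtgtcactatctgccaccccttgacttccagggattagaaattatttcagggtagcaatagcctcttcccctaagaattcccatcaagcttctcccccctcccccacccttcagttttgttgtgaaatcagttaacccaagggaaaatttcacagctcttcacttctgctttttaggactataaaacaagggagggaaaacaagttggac

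The 2 distal stretches below are 300 bases around the best summit of regions among those with the smallest p in each direction, read on the plus strand. That near Banp (chr8:122014136-122014435) ranked higher in diabetic libraries, and that near Gm7863 (chr9:72132982-72133281) ranked lower. Capitals mark matches to 5 motifs searched on both strands of such windows, GGGA and TTCC with 2 free bases between them for NF-κB, GAAA repeated after 2 free bases for the interferon-stimulated response element, TGANTCA for AP-1, GAGGAAGT for PU.1 and TGTGGTTT for RUNX. The window near Banp held TGANTCA, and that near Gm7863 held none of the 5. A match is a description of the letters only.
Region near Banp: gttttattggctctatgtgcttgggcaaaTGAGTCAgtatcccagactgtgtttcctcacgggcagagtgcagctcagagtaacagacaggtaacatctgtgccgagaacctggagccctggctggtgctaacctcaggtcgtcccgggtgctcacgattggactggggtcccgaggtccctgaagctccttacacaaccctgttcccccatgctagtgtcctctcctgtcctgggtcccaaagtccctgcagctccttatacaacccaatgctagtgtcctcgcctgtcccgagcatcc
Region near Gm7863: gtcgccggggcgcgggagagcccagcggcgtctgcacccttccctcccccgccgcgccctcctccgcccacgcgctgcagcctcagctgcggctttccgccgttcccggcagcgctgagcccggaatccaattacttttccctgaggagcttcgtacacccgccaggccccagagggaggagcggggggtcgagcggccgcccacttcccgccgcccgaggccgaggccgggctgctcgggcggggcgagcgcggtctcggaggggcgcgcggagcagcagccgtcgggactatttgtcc

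The lists as deposited held 52470 to 142219 peaks in diabetic libraries (median 93501.5) and 78716 to 176559 in control libraries (median 129022). The groups overlapped, and the difference in mean log2 peak number was -0.41 (p = 0.206, two-sided exact permutation test over 924 arrangements). The −log10 p at rank 20000 ran from 10.1 to 34.3, so the same rank stood for different strengths of evidence in different libraries. Read totals are not in the lists, and depth is therefore unknown. In the shortened lists, 44.1% to 52.6% of the 21938 protein-coding genes had a promoter peak, and the share of peaks away from start sites was 37.7% ± 3.41 (SD, n = 6) in diabetic and 37.3% ± 2.2 (SD, n = 6) in control libraries, a difference of 0.448 percentage points (p = 0.820, two-sided exact permutation test). Diabetic library 3 had a distal share of 44.33%, and without it the difference was -0.870 percentage points (p = 0.452, exact permutation test).

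Whether the control libraries carried the mark of their stimulation was read from regions set by the diabetic libraries. The diabetic libraries could not be checked in this way. In diabetic BMDMs, 112 regions were held by all 6 stimulated lists and by none of the 5 unstimulated lists, and 42 regions showed the converse. These regions were then read in the control libraries, whose lists were not used to choose them. Control stimulated libraries 1, 2, 3, 4 and 6 held 110, 76, 89, 85 and 94 of the 112 regions, and 5, 8, 7, 15 and 10 of the 42. The control library labelled stimulated 5 held 23 of the 112 and 35 of the 42, and so went against its label. Among unstimulated control libraries, 1 to 4 held 6 to 49 of the 112 and 23 to 31 of the 42. Those labelled unstimulated 5 and 6 held 85 and 77 of the 112 and 4 and 16 of the 42, and so went against their labels too.

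**Figure D1:**
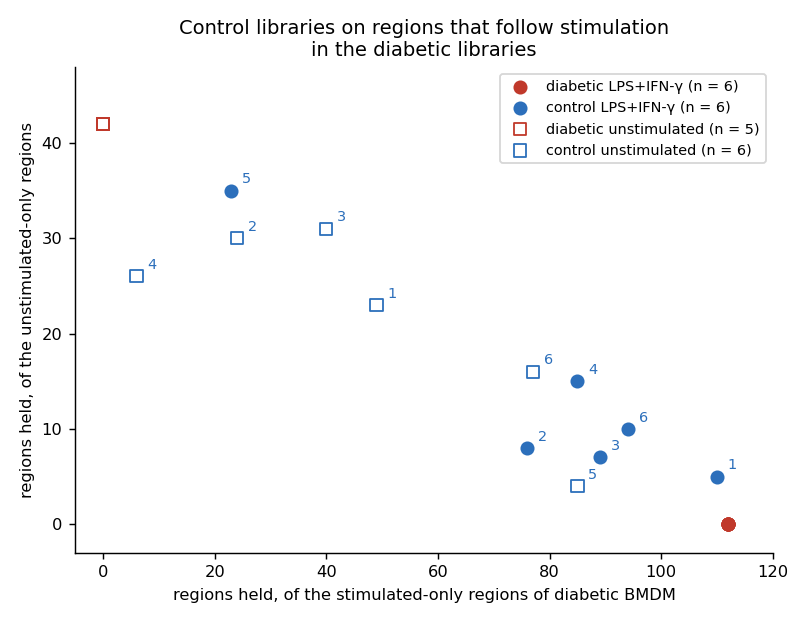
Each point is 1 H3K27ac library, placed by the number of the 112 stimulated-only regions it held (horizontal) and the number of the 42 unstimulated-only regions it held (vertical), both counts of regions. Filled circles are stimulated and open squares unstimulated libraries, numbers are control replicates, and the diabetic libraries sit at the corners because their lists defined the regions. Control stimulated library 5 lies at 23 and 35, beside unstimulated control libraries 1 to 4.

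Some of these regions lie at promoters, which name genes but are no further check of the library. Stimulated-only regions touched the promoters of 19 protein-coding genes, among them Ccl5, a chemokine for T cells and monocytes, Arg2, a mitochondrial arginase, Il10rb, a chain of the interleukin-10 receptor, and Cd200. Control stimulated library 5 held 2 of these 19, at Banp and Gm14327. Unstimulated-only regions touched those of 15 genes, among them Gpr84, a receptor for medium-chain fatty acids, and Zbtb16, a transcriptional repressor, and control stimulated library 5 held 10 of the 15. The genes named from these regions were chosen after their values were seen. Results are therefore given for all 12 libraries and, where it matters, without control library 5.

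Most promoters with a peak had one in every library. Of 21938 genes, 13100 had a promoter peak in at least 1 shortened list and 8229, or 62.8% of those, had one in all 12. Distal regions behaved otherwise. Of 24190 distal regions, 885, or 3.66%, were held by all 12 libraries and 11212 by a single library. Promoters held by all 12 libraries had a median observed-to-expected CpG ratio of 0.789 over 300 bases around the start, against 0.60 for promoters held by 1 to 11 libraries and 0.207 for the 8838 promoters held by none. In the distal regions that were tested the median ratio was 0.287. The middle of a tested distal region fell in an intron in 54.6%, between genes in 35.6% and in an exon in 9.73% of cases, and the median width was 1363 bp.

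Diabetic and control libraries did not form separate groups. Libraries were compared by a distance, 1 minus Spearman's rho of their rank scores. Over promoters it averaged 0.222 between groups and 0.228 within groups, a separation of -0.00605 (p = 0.634, one-sided exact permutation test), and over distal regions 0.60 and 0.615, a separation of -0.0145 (p = 0.686, one-sided exact permutation test). Without control library 5 the separations were -0.0144 (p = 0.903) and -0.0258 (p = 0.864) by the same exact permutation test. The closest pair by promoters was diabetic library 6 with control library 4, at a distance of 0.0786. The closest pair by distal regions was diabetic library 3 with control library 1, at 0.328, and diabetic library 3 was also the farthest from control library 5, at 0.962.

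**Figure D2:**
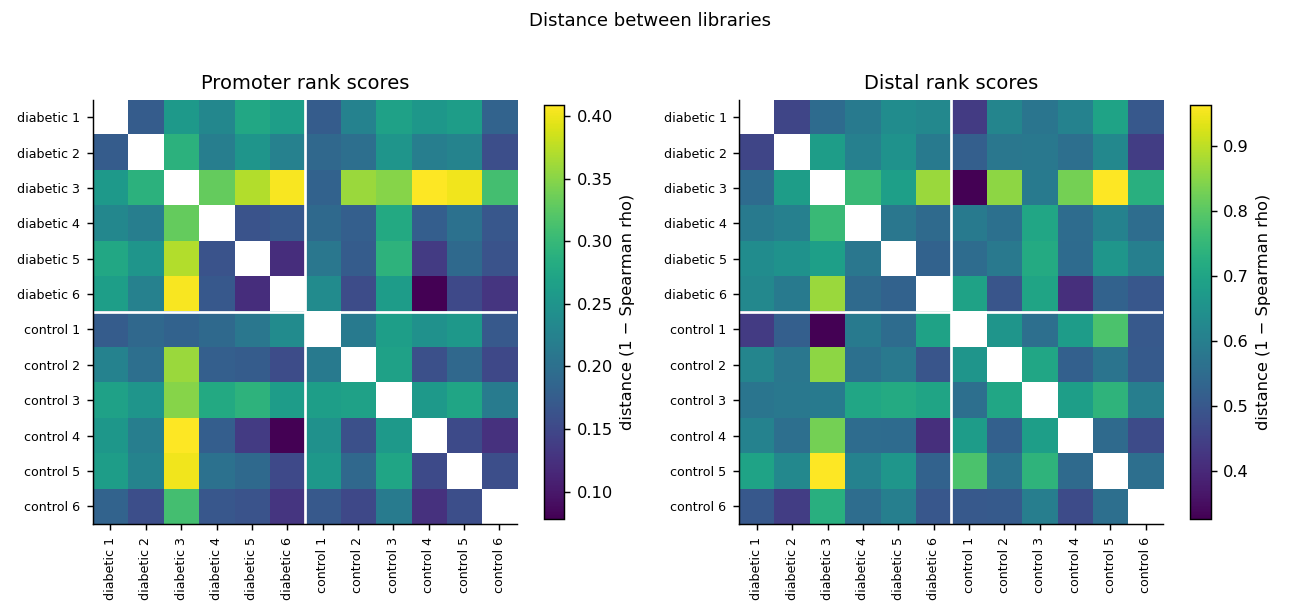
Distance (1 minus Spearman's rho, colour scale) between each pair of the 12 libraries by promoter rank score (left) and by distal rank score (right), with white lines between the diabetic and control groups. The mean distance between groups, 0.222 by promoters and 0.60 by distal regions, was no larger than that within groups, and diabetic library 3 stands apart from most others by promoters.

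No promoter and no distal region differed between diabetic and control libraries after adjustment. Promoters with a peak in at least 4 of the 12 lists were tested, 11541 in all, and 0 were called by limma with Benjamini-Hochberg adjustment (smallest adjusted p 0.997, 0% called). At an unadjusted p under 0.05 there were 300 promoters, 2.60% of those tested, with 88 (0.762%) ranked higher and 212 (1.84%) ranked lower in diabetic libraries. An exact rank-sum test gave 285 at an unadjusted p under 0.05 and called 0. Of 6991 distal regions tested, limma called 0 (smallest adjusted p 0.996), with 117 (1.67%) at an unadjusted p under 0.05, 50 (0.715%) higher and 67 (0.958%) lower, and the exact rank-sum test gave 118 and called 0. When control library 5 was left out, limma called 0 promoters (215 at an unadjusted p under 0.05) and 0 distal regions (91 at that level).

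The libraries of a group varied widely, and this set what could be seen. The median SD within a group was 0.65 for promoters and 0.38 for distal regions on the rank score scale. The 95% confidence interval of a difference reached 0.81 to either side at the median promoter, a 1.75-fold change in rank, and 0.51 at the median distal region, a 1.42-fold change in rank. The median difference over all promoters tested was -0.03, and over all distal regions 0.02.

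**Figure D3:**
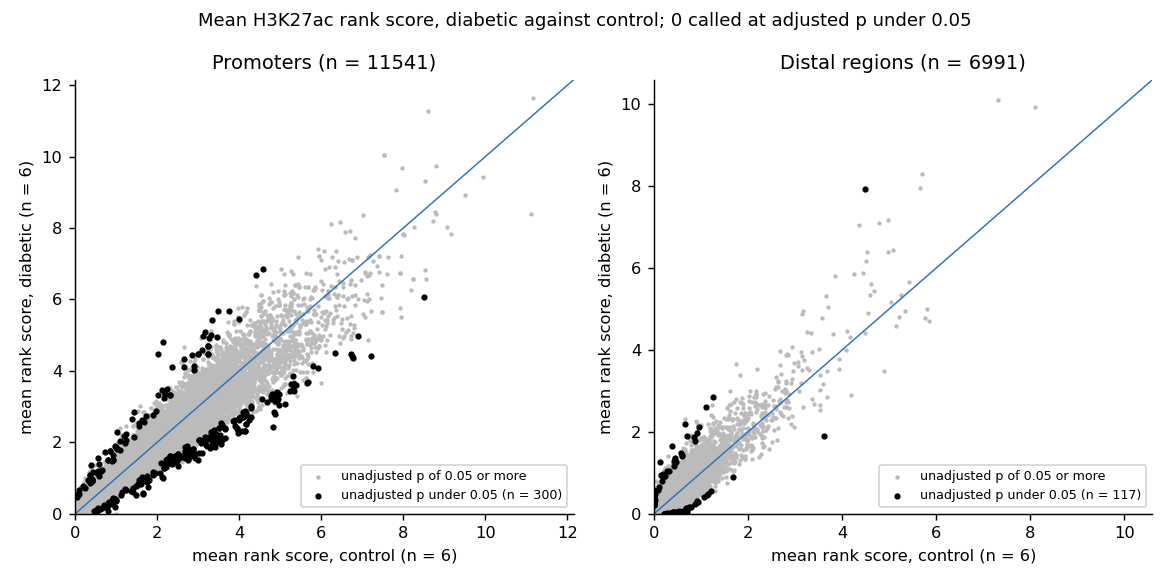
Mean rank score (log2 scale, higher for stronger peaks) of diabetic libraries (vertical, n = 6) against control libraries (horizontal, n = 6), for the 11541 promoters and the 6991 distal regions tested. Black points have an unadjusted limma p under 0.05 (300 promoters and 117 distal regions), 0 were called at an adjusted p under 0.05, and the line marks equal means.

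The strongest promoters were picked by their mean rank score over all 12 libraries, which favours those strong in both groups. The 10 highest mean rank scores belonged to H2-Q7, H2-Q6 and H2-Q4, class I major histocompatibility genes, and to Zc3h4, Rbm39, Efcab2, Epc1, Actg1 and the pair Wbp11 and BC049715, which share 1 peak. At H2-Q7 the ranks ran from 1 to 71 in diabetic libraries (median 7.5) and from 1 to 227 in control libraries (median 8), and the groups overlapped throughout. The H2-Q genes are near-identical copies, and reads of 50 bp may be assigned to the wrong copy, so their ranks are uncertain. At Zc3h4, a zinc finger protein that limits noncoding transcription, the ranks were 2 to 217 in diabetic (median 127.5) and 1 to 24 in control libraries (median 11), a difference of -2.73 ± 1.40 (SE) with an adjusted p of 0.997 in limma. At Actg1, a cytoplasmic actin, the ranks were 3 to 147 in diabetic (median 39.5) and 2 to 369 in control libraries (median 161).

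Inflammatory cytokine genes carried few strong promoter peaks. Of 18 genes in the list, 12 had a promoter peak in at least 1 shortened list, 3 had one in all 12 libraries (Ptgs2, Osm and Il27) and 7 could be tested, of which 0 were called and 0 had an unadjusted p under 0.05. Their median difference was 0.24 (0.09 without control library 5), against -0.03 over all promoters. Il6 and Il1b, the cytokines most often used to read macrophage activation, had no promoter peak in any shortened list. In lists shortened equally to 52470 peaks, the length of the shortest, a peak stood at Il6 in 2 diabetic and 2 control libraries and at Il1b in 0 and 0. In the lists as deposited, which are longer in controls, the numbers were 2 and 4 at Il6 and 1 and 1 at Il1b.

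Nos2, the inducible nitric oxide synthase, has an annotated start at chr11:78925203, beside its best promoter peak. Its promoter peak ranked 4858 to 14308 in diabetic libraries (median 7412.5), and in control libraries 3030 at best with a median of 9012.5 and no peak in library 3. The groups overlapped, and the difference was 0.24 ± 0.38 (SE; adjusted p 0.997, limma). Of 11 distal regions tested within 50000 bp of a Nos2 start, 1 was held by all 12 libraries (chr11:78916691-78918905). It lay 1882 bp from another annotated start of the gene than the one given above. It ranked 2098 to 7018 in diabetic libraries (median 4365) and 1762 to 12217 in control libraries (median 7740), a difference of 0.66 ± 0.53 (SE; adjusted p 0.996, limma). This region was named after its values were seen.

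Ptgs2, which encodes cyclooxygenase 2, was among the best ranked of the inflammatory list, at 1169 to 4875 in diabetic (median 1919.5) and 1610 to 6630 in control libraries (median 2814). Osm, a cytokine of the interleukin-6 family, ranked 1091 to 7920 (median 5281.5) and 4123 to 11140 (median 6093), a difference of 0.63 ± 0.45 (SE; adjusted p 0.997, limma). Both genes overlapped between groups. Tnf held a promoter peak in 4 diabetic and 3 control libraries, with best ranks of 6190 and 12897 and a difference of 0.43 ± 0.27 (SE; adjusted p 0.997, limma).

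Of 15 chemokine genes, 10 had a promoter peak in at least 1 library, 8 were tested and 0 were called, with a median difference of -0.10 (-0.02 without control library 5). At Ccl5 (start chr11:83530513) the ranks were 7716 to 16216 in diabetic libraries (median 10228) and, in control libraries, 5469 at best with a median of 13858 and no peak in library 5. The difference was 0.30 ± 0.29 (SE; adjusted p 0.997, limma), and 0.17 ± 0.30 without control library 5. Ccl5 had no promoter peak in any of the 5 unstimulated diabetic lists and had one in 2 of the 6 unstimulated control lists, those of libraries 5 and 6, which went against their label. Cxcl16, a membrane-bound chemokine and scavenger receptor, ranked 1618 to 3160 in diabetic (median 2192) and 418 to 5410 in control libraries (median 708.5), a difference of -1.13 ± 0.62 (SE; adjusted p 0.997, limma). Cxcl9 had no promoter peak in any list, shortened or as deposited.

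**Figure D4:**
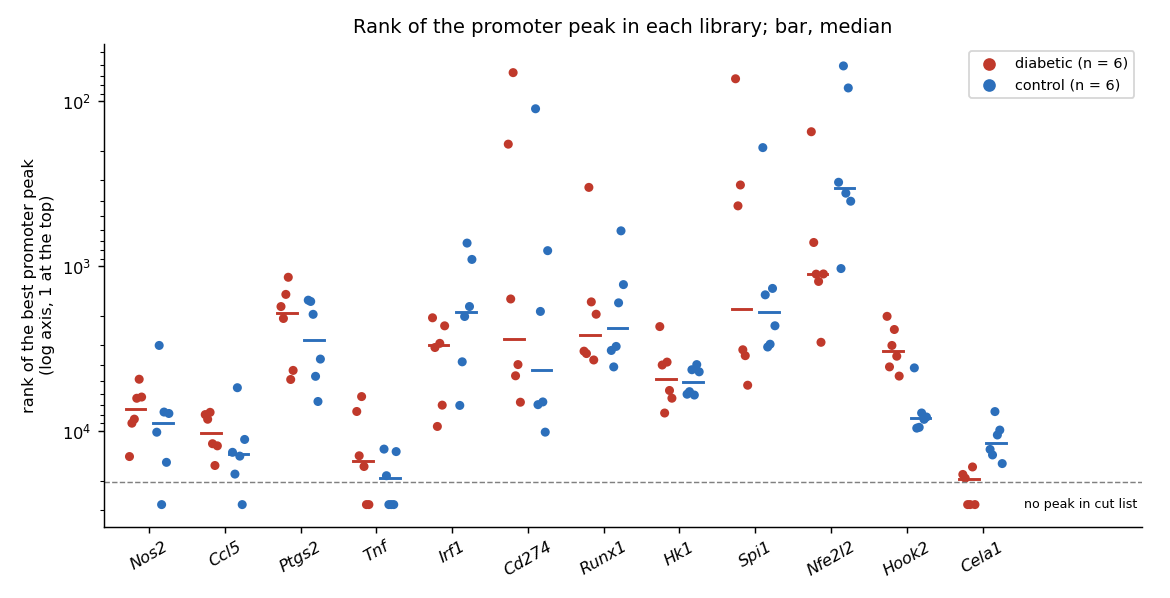
Rank of the best promoter peak (vertical, log axis, rank 1 at the top) in each of 6 diabetic and 6 control libraries for 12 genes, with bars at the group medians and points under the dashed line where a shortened list held no peak. The groups overlap at 11 of the 12 genes, and at Cela1 the 6 control libraries, at 7634 to 15785, lie above the 3 diabetic libraries with a peak, at 16549 or weaker.

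Interferon-induced genes were well marked in both groups. Of 30 genes, 26 had a promoter peak in at least 1 library and 13 in all 12, 24 were tested and 0 were called, with 1 at an unadjusted p under 0.05 and a median difference of 0.14. Leaving out control library 5 gave a median of 0.03, and 0 of the genes had an unadjusted p under 0.05. The transcription factor Irf1 ranked 2059 to 9397 in diabetic (median 3031) and 725 to 7005 in control libraries (median 1890.5). Socs1, a feedback inhibitor of cytokine signalling, ranked 127 to 4520 (median 818) and 78 to 4054 (median 521), and the immune checkpoint ligand Cd274 67 to 6698 (median 2771) and 111 to 10174 (median 4278). In all 3 genes the groups overlapped and the adjusted p was 0.997 in limma.

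Irgm1, an interferon-induced GTPase of defence against intracellular microbes, was the interferon-induced gene with the smallest p. It had a promoter peak in 5 diabetic libraries, with ranks of 2055 to 16718 and none in library 6, and in 4 control libraries, with ranks of 7728 to 18360 and none in libraries 2 and 4. The difference was 1.00 ± 0.47 (SE; unadjusted p 0.0428 and adjusted p 0.997, limma) and 1.01 ± 0.50 without control library 5 (unadjusted p 0.0554, limma). Psmb8, a subunit of the immunoproteasome, and Gbp7, a guanylate-binding protein, bounded the list, at -1.32 ± 0.95 (SE) and 1.27 ± 0.76 (SE).

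Genes of LPS and IFN-γ signalling, the receptors and transducers upstream of these targets, were held by nearly every library. Of 20 genes, 20 had a promoter peak and 18 had one in all 12 libraries. Of 19 tested, 0 were called, 4 had a difference above 0, against 46.1% of all promoters, and the median was -0.28. Once control library 5 was left out, 11 of 19 were above 0 and the median was 0.03. Nfkb1, a subunit of NF-κB, ranked 50 to 1563 in diabetic (median 915.5) and 8 to 4703 in control libraries (median 1195). Nfkbia, its inhibitor, ranked 150 to 1428 (median 826) and 50 to 1302 (median 499). Tlr4, the LPS receptor, was the member that could not be tested, with a promoter peak in 1 diabetic and 1 control library.

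Alternative activation genes included promoters held by every library and by none. Of 14 genes, 7 had a promoter peak, 5 had one in all 12 libraries, 6 were tested and 0 were called (median difference 0.10, and 0.04 without control library 5). The 5 held by all 12 were the factors Klf4, Pparg and Stat6, the interleukin-4 receptor chain Il4ra and the enzyme Tgm2, a transglutaminase. Pparg ranked 1899 to 7784 in diabetic (median 3568.5) and 1297 to 5459 in control libraries (median 4068.5). Retnla and Chil3, secreted products of such macrophages, had no promoter peak in any shortened or deposited list, and no distal region was tested within 50000 bp of either.

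Macrophage identity genes were read as a check of the cell type. Of 17 genes, 13 had a promoter peak and 8 had one in all 12 libraries, among them the lineage factors Spi1 (PU.1), Cebpa, Cebpb, Irf8, Maf and Mitf and the LPS co-receptor Cd14. The other 4, Itgam, Fcgr1, Cx3cr1 and the factor Tfec, had none in any shortened list. Adgre1 and Lyz2 each had one in a single control library, so these genes were poorly seen by this measure. A peak in at least 1 list was about as common among stem and progenitor markers, at 6 of 8. None of those 8 had one in all 12 libraries. Spi1 ranked 73 to 5283 in diabetic (median 1825) and 191 to 3097 in control libraries (median 1898). Csf1r, the receptor for macrophage colony-stimulating factor, held a peak in all 6 diabetic libraries and in 5 of 6 control libraries. Of the 11 tested, 0 were called.

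Maf, a transcription factor of mature macrophages, was the identity gene with the smallest p. Its promoter peak (start chr8:115707096) ranked 4163 to 10205 in diabetic libraries (median 5054.5) and 730 to 5828 in control libraries (median 3176.5). The groups overlapped, and the difference was -1.06 ± 0.47 (SE; unadjusted p 0.0339 and adjusted p 0.997, limma). Without control library 5 it was -1.09 ± 0.50. In H3K4me3 lists of cells with the same labels, ranked in the same way, Maf had a peak in all 12 lists and a difference of -2.49 (p = 0.0584, two-sided exact permutation test). The labels do not say whether the marks were mapped in chromatin of the same cultures.

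Markers of other cell types varied in how often they were marked, beside 59.7% of all genes with a promoter peak in at least 1 list. None of 6 fibroblast markers and 1 of 6 B cell markers had a promoter peak in any shortened list, and 2 of 6 T cell, 2 of 8 neutrophil, 3 of 7 erythroid, 4 of 6 dendritic cell and 6 of 8 stem and progenitor markers had one in at least 1 list. Klf1 and Batf3 were held by all 12 libraries, and at both the groups overlapped. The summed rank score of the neutrophil markers was 0 to 1.18 in diabetic and 0.210 to 0.745 in control libraries, and that of the stem and progenitor markers 0 to 2.28 and 0.0193 to 2.60.

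Genes of lipid handling and of glycolysis, which bear on foam cells and on the metabolism of activated macrophages, were held by most libraries of both groups. Of 14 lipid uptake and efflux genes, 10 were held by all 12 libraries, 11 were tested and 0 were called (median difference 0.08, and 0.19 without control library 5). Abca1, the cholesterol exporter, ranked 1590 to 3689 in diabetic (median 2026) and 1299 to 5158 in control libraries (median 2301.5), a difference of 0.0019 with a 95% confidence interval reaching 1.02 to either side. The scavenger receptor Cd36 had no promoter peak in any list. Of 20 glycolysis genes, 20 had a promoter peak, 17 had one in all 12 libraries, 19 were tested and 0 were called (median difference 0.02, and 0.05 without control library 5). The value without control library 5 is over 20 entries, because a further annotated entry of Aldoa was counted there.

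Hk1, the hexokinase that starts glycolysis, has its peak at chr10:62339227-62341407. Its ranks were 2328 to 7790 in diabetic (median 4833.5) and 3960 to 6059 in control libraries (median 5080), a difference of 0.11 ± 0.36 (SE; adjusted p 0.997, limma), and every control library lay within the range of the diabetic ones. Hk2 ranked 2127 to 9274 (median 5931.5) and 5320 to 12659 (median 8706.5), a difference of 0.62 ± 0.35 (SE; adjusted p 0.997, limma). Eno1, an enolase, and Hif1a, a transcription factor that induces glycolytic genes, bounded the list at 1.13 ± 0.67 (SE) and -0.95 ± 0.80 (SE). Slc2a1, the glucose transporter GLUT1, had a difference of -0.68 ± 0.36 (SE; unadjusted p 0.0735, limma), and of -0.80 ± 0.38 without control library 5 (unadjusted p 0.0484, limma). It had no promoter peak in diabetic library 3.

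Of the oxidative stress response genes tested, 2 had an unadjusted p under 0.05, both lower in diabetic libraries, where 1.84% of all promoters were lower at that level, and 1 of them, Txnrd1, did so without control library 5. Of 17 genes, 14 were held by all 12 libraries, 16 were tested and 0 were called, with a median difference of -0.12. Nfe2l2, which encodes the stress-response factor NRF2, ranked 153 to 2900 in diabetic (median 1117.5) and 61 to 1035 in control libraries (median 335.5), with overlap between the groups. The difference was -1.84 ± 0.89 (SE; unadjusted p 0.0494 and adjusted p 0.997, limma), and -1.52 ± 0.90 without control library 5 (unadjusted p 0.105, limma). Txnrd1, a thioredoxin reductase, ranked 3229 to 5701 (median 3871) and 1164 to 3642 (median 1696), a difference of -1.08 ± 0.44 (SE; unadjusted p 0.0232 and adjusted p 0.997, limma). Control library 3, at 3642, lay within the diabetic range, and the other 5 lay above it. In H3K4me3 lists the differences were -0.40 for Nfe2l2 (p = 0.465) and -0.25 for Txnrd1 (p = 0.665), by two-sided exact permutation tests, and Irgm1 had no H3K4me3 promoter peak.

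The Runx genes and their partner Cbfb, adhesion genes and chromatin enzymes completed the lists. Runx1, a factor of blood stem cells and macrophages, ranked 333 to 3712 in diabetic (median 2621) and 611 to 4090 in control libraries (median 2371.5), a difference of 0.05 ± 0.64 (SE; adjusted p 0.997, limma). Of 8 distal regions tested within 50000 bp of a Runx1 start, the one 4792 bp away (chr16:92819696-92820986) was held by 0 diabetic and 5 control libraries, at 13617 or weaker. It was named after its values were seen and could be tested only through the control group, so no test is given. Of 10 adhesion genes 5 were tested (median difference -0.15), and the integrin gene Itgal had no promoter peak in a list of 20000 and one in 5 diabetic and 5 control lists of 52470 peaks. Of 16 genes for histone and DNA modifying enzymes 16 were tested, with a median difference of 0.04 (0.08 without control library 5). Ep300, an acetyltransferase that lays down H3K27ac, ranked 18 to 1046 in diabetic (median 449.5) and 41 to 414 in control libraries (median 88.5), a difference of -0.88 ± 1.16 (SE). None of the 3 lists had a called gene in limma, or one with an unadjusted p under 0.05.

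Over the 12 gene lists together, 145 of 192 genes were tested and 0 were called. At an unadjusted p under 0.05 there were 4, or 2.76%, against 2.60% over all promoters tested, and 1 of the 4 was ranked higher in diabetic libraries. The median difference was -0.01 for the list genes and -0.03 for all promoters.

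**Figure D5:**
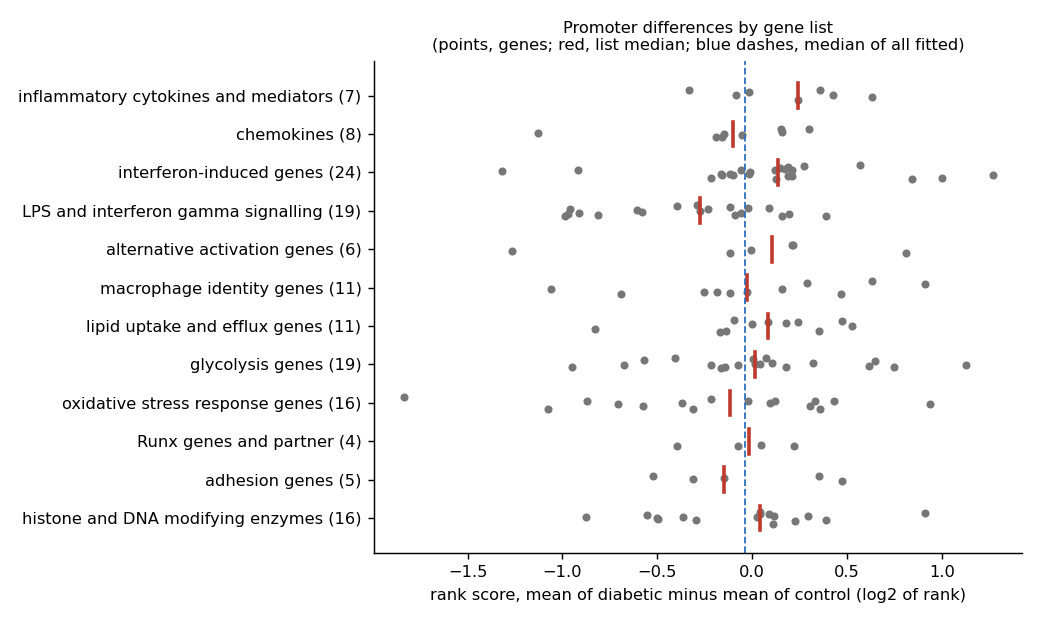
Difference in mean promoter rank score (horizontal, diabetic minus control, log2 scale) for the tested genes of 12 lists, 1 point per gene, with the number tested in brackets, list medians in red and the median of all 11541 promoters as blue dashes. List medians lie between -0.28 (LPS and IFN-γ signalling) and 0.24 (inflammatory cytokines and mediators).

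Distal regions within 50000 bp of a list gene numbered 297, of which 0 were called. At an unadjusted p under 0.05 in limma there were 5 of the 297, 3 higher and 2 lower in diabetic libraries. Among all 6991 distal regions tested, 1.67% were under that level, 0.715% higher and 0.958% lower. Around interferon-induced genes, 34 of 40 regions had a difference above 0, against 54.5% of all distal regions, with a median of 0.11. Without control library 5, which held few of the stimulation-dependent regions, 29 of 39 were above 0, against 52.5% of all, with a median of 0.09. None of these 40 regions reached an unadjusted p under 0.05, and neighbouring regions share libraries and often a gene, so they are not separate observations. Around inflammatory cytokine genes 23 of 33 were above 0 (median 0.10), around macrophage identity genes 18 of 39 (median -0.01) and around Runx genes 6 of 15 (median -0.10). Leaving out control library 5 gave 19 of 36 with a median of 0.07 for macrophage identity genes, the opposite sign, and 6 of 14 with a median of -0.01 for Runx genes. No region was tested near Il6 or Il1b.

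The promoters with the smallest p are given as a description, since they were picked by that p and none was called. Ranked higher in diabetic libraries were Hook2, Uckl1, E130208F15Rik, Timm13, Camta2, Zfp719, Zmynd8, Strap, Vamp1 and Agpat1, with differences of 0.96 (Zfp719) to 2.67 (Vamp1). Hook2, an adaptor between cargo and the microtubule motor dynein, ranked 2018 to 4649 in diabetic (median 3276) and 4146 to 9620 in control libraries (median 8373.5). Its difference was 1.28 ± 0.36 (SE; unadjusted p 0.00142 and adjusted p 0.997, limma), and control library 1, at 4146, was the only control library within the diabetic range. Its promoter, shown above, held 15 CG.

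Uckl1, a uridine kinase, ranked 303 to 1263 in diabetic (median 592.5) and 1303 to 3847 in control libraries (median 1888), and was 1 of only 2 of the 11541 promoters (0.0173%) whose diabetic libraries all lay above all control libraries. Vamp1, a vesicle fusion protein, ranked 12 to 4457 (median 1945.5) and 1810 to 9107 (median 4918.5), a difference of 2.67 ± 1.01 (SE), with diabetic libraries 3 and 1 at 12 and 217. The difference at Vamp1 was 1.49 without diabetic library 3. Zmynd8, a reader of acetylated histones, ranked 85 to 2908 (median 471) and 1023 to 3462 (median 2036.5). Agpat1, an enzyme of phospholipid synthesis, ranked 301 to 1493 (median 555.5) and 382 to 7280 (median 2636.5). Apart from Uckl1, the groups overlapped at these genes.

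Ranked lower in diabetic libraries were Cela1, Taf9b, Cfl2, Mvb12b, Stxbp5, Zfp362, Ncbp3, Pttg1 and the pair Txndc9 and Eif5b, which share 1 peak, with differences of -2.08 (Cfl2) to -0.73 (Cela1). Cela1, a serine protease of the elastase family, had a weak peak at chr15:100686271-100686831. This peak lay to 1 side of a start at chr15:100685364, within the 1000 bp allowed. Its ranks were 7634 to 15785 in the 6 control libraries (median 11768.5) and 16549, 18377 and 19368 in 3 diabetic libraries. The difference was -0.73 ± 0.20 (SE; unadjusted p 0.00123 and adjusted p 0.997, limma), and the groups did not overlap, as at 9 of 11541 promoters (0.0780%) that were lower in diabetic libraries. In the lists as deposited, all 12 libraries had a promoter peak at Cela1. Of the 12 H3K4me3 lists of stimulated BMDMs, 0 had one. The stretch shown above lies before another start of the gene.

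Txndc9, a thioredoxin-domain protein, and Eif5b, a translation initiation factor, start beside each other near chr1:37997893. The peak ranked 1918 to 9012 in diabetic (median 4126.5) and 673 to 2064 in control libraries (median 1131), a difference of -1.81 ± 0.52 (SE; unadjusted p 0.00205 and adjusted p 0.997, limma), with diabetic library 6 alone in the control range. Cfl2, which severs actin filaments, ranked 692 to 6791 (median 3183.5) and 279 to 1183 (median 847.5). Stxbp5, a regulator of vesicle fusion, ranked 2980 to 7743 (median 5758.5) and 780 to 2713 (median 2254.5) with no overlap, and Ncbp3, a cap-binding protein, 1422 to 4375 (median 2350.5) and 186 to 1397 (median 688) with no overlap.

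These 20 promoters were also read in lists that were not used to pick them. In the 12 H3K4me3 lists of stimulated BMDMs, 15 of the 20 had a difference of the same sign as in H3K27ac, against 58.7% of all promoters tested, and 1, Taf9b, had a p under 0.05 (0.0130, two-sided exact permutation test). In the 11 H3K27ac lists of unstimulated BMDMs, 8 of the 20 had the same sign, against 45.7% of all, and 0 had a p under 0.05 in that test. Without unstimulated control libraries 5 and 6, which went against their label, 9 of the 20 had the same sign, against 47.6% of all, and 1, Camta2, had a p under 0.05 (0.00794, exact permutation test, the smallest p that these lists allow).

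By presence or absence of a peak, 744 promoters could reach a p of 0.05 in Fisher's exact test, 1 did so (0.134%) and 0 were called. The promoter was that of Gm49388, held by 6 diabetic and 1 control library (p = 0.0152, Fisher's exact test). With a p of 0.0606 in the same exact test, Dusp18 and 4921536K21Rik, which share 1 peak, and Nmt1, an N-myristoyltransferase, were held by 6 diabetic and 2 control libraries. Hpgds, a prostaglandin D synthase, was held by 4 and 0. Held by more control libraries were Amer1, Jazf1 and Pkib, each by 2 diabetic and 6 control libraries, and Acy1 and Gpr84, each by 0 and 4. Hpgds, Acy1 and Gpr84 could be tested only through 1 group, so no p is given for them. Nmt1 and Gpr84 lay in the stimulation-dependent regions described above: the Nmt1 promoter was held by 0 of 5 unstimulated diabetic and 4 of 6 unstimulated control libraries, and that of Gpr84 by 4 and 4, with unstimulated control library 5 among the holders of Nmt1 and neither 5 nor 6 among those of Gpr84. The 4 control libraries with a Gpr84 peak were 3, 4, 5 and 6. In lists of 52470 peaks these differences in occupancy were mostly gone, with Gm49388, Dusp18, Amer1, Pkib and Acy1 held by 6 and 6, Nmt1 and Hpgds by 6 and 5, Jazf1 by 5 and 6, and Gpr84 by 3 diabetic and 5 control libraries. No promoter was present in all 6 libraries of either group and absent from the opposite 6.

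The strongest distal signal lay in 1 stretch of chromosome 6. Between chr6:47658551 and 47773359 there were 20 distal regions with a median width of 2280.5 bp, 15 of them held by all 12 libraries. These 15 all had a difference above 0, but the bounds of the stretch were set by regions that ranked higher in diabetic libraries in the lists as deposited, so this count is a description. The strongest, chr6:47752084-47754704, ranked 1 to 159 in diabetic (median 37.5) and 1 to 2591 in control libraries (median 191), a difference of 2.79 ± 1.93 (SE; adjusted p 0.996, limma), so that both groups reached the first rank. The one at chr6:47662917-47665200 ranked 10 to 1003 (median 58.5) and 35 to 4735 (median 1731), a difference of 3.46 ± 1.45 (SE; unadjusted p 0.0230 and adjusted p 0.996, limma). Neighbouring regions of this stretch are alike in width and may share sequence, in which case reads of 50 bp could be split among them, and their ranks are uncertain. Of the 10 strongest distal regions 9 lay in or just before this stretch, and the other, 5452 bp from Zfp869 (chr8:69716176-69717077), ranked 4 to 567 in diabetic (median 11.5) and 9 to 481 in control libraries (median 51.5). Each of these 10 regions also had a peak in 9 to 12 of the 12 H3K4me3 lists of stimulated BMDMs.

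Among distal regions with the smallest p, again a description, those ranked higher in diabetic libraries included regions nearest Banp, Gm42776, Lrp1, Plxna1, Gm14437, Gm37280 and Gm5100, with differences of 0.47 to 1.53. The region in an intron 9407 bp from a start of Banp (chr8:122010254-122020164) ranked 437 to 13024 in the 6 diabetic libraries (median 7206.5) and was held by 4 control libraries, 5187 at best, a difference of 1.53 ± 0.57 (SE; unadjusted p 0.0111 and adjusted p 0.996, limma), and of 0.86 without diabetic library 3. The region in an intron near Lrp1, an endocytic receptor for lipoproteins (chr10:127551810-127561096), was held by 6 diabetic and 4 control libraries, with best ranks of 1671 and 4706. At both the groups overlapped.

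The 8 ranked lower in diabetic libraries lay nearest Gm7863, Cd47, Man2a1, Ago2, Gm17619, Gm37191, Slc35e4 and Gm20712, with differences of -1.72 to -0.45. The region 4028 bp from Gm7863 (chr9:72132615-72133798) ranked 2967 to 11311 in diabetic (median 5329) and 448 to 3101 in control libraries (median 2120), a difference of -1.72 ± 0.65 (SE; unadjusted p 0.0121 and adjusted p 0.996, limma). Diabetic library 5, at 2967, and control library 5, at 3101, were the only libraries inside the other group's range. This region carried H3K4me3 in all 12 lists of stimulated BMDMs and its 300 bases had a CpG ratio of 0.950, against a median of 0.287 for tested distal regions, although it lay between annotated genes. The groups did not overlap at 3 of the 6991 distal regions (0.0429%), all lower in diabetic libraries. The other 7 named were weak peaks, held by 0 to 2 diabetic and 4 to 6 control libraries. Those nearest Gm37191 and Gm20712, held by 0 diabetic libraries, could be tested only through the control group. The region nearest Cd47, which encodes a signal against phagocytosis, was 113164 bp from its start.

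Of the 16 distal windows, 3 held TGANTCA, 1 held TGTGGTTT and none held the NF-κB, interferon-response or PU.1 letters. Over the 300-base windows of all 6991 tested distal regions, TGANTCA was found in 6.97%, TGTGGTTT in 1.64%, GAGGAAGT in 1.99%, the interferon-response letters in 1.97% and the NF-κB letters in 0.873%. Their absence from a window says only that they were not found there.

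By presence or absence, 2578 distal regions could reach a p of 0.05 in Fisher's exact test, 13 did so (0.504%) and 0 were called. Without control library 5, 29 of 3892 did so, with 0 called. Leaving out each of the 12 libraries in turn gave 28 to 72. Held by more diabetic libraries were regions nearest Gm37737 and Slamf7, each in 6 diabetic and 1 control library (p = 0.0152 each, Fisher's exact test). Those nearest Heg1 and Rftn1 were each in 6 and 2 (p = 0.0606 each, by the same exact test), and that nearest Glipr2 in 5 and 0. Slamf7 is a surface receptor of activated immune cells, and its region (chr1:171657541-171658267) ranked 2387 to 18553 in diabetic libraries (median 14304.5) and 11125 in control library 1 alone. Held by more control libraries were regions nearest Ptpn1, Gm37191, Gm15754, Gm23498 and Gm5475, each in 0 diabetic and 5 control libraries. These regions and that nearest Glipr2 could be tested only through 1 group, so no p is given for them. The region in an intron of Ptpn1, a tyrosine phosphatase that acts on insulin and cytokine receptors (chr2:167945167-167946091), ranked 11878 at best in control libraries. No distal region was present in all 6 libraries of either group and absent from the opposite 6.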

How the data were processed

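The authors' lists were MACS2 narrowPeak files with the matched input as background. Submitters' processing notes name Trim Galore 0.3.3, cutadapt 1.8, FastQC 0.11.3, Bowtie2 2.2.6, Picard 2.18.14 and 2.19.2, bedtools 2.19.1 and MACS2 2.2.7.1 with GRCm38 or mm10, and libraries were single reads of 50 bp. Each deposited peak carries a −log10 p, used here to rank peaks within 1 list, and a ratio (fold enrichment over background), which the authors gave and which served as an alternative ranking. The score and −log10 q were not used. Summits of 1 numbered interval were joined into 1 peak.

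Promoters came from 93513 start sites of 21938 protein-coding genes (GENCODE M21). Shortened lists were merged where peaks shared 1 bp to give regions. Rank scores were fitted in limma 3.58.1 (R 4.3.3) with a trend and no covariate, over features with a peak in at least 4 libraries, with Benjamini-Hochberg adjustment. Occupancy was tested by two-sided Fisher's exact tests, and separation and distal share by exact permutation (scipy 1.17.1), whose smallest two-sided p is 0.00216. The promoter fit was also run on simulated, normally distributed scores with known changes. Those scores lacked the floor at 0 of the real ones, and no distal fit was simulated. Named features were list genes and 8 genes named by the study, the 10 promoters and 8 distal regions per direction with the smallest limma p, the 5 per direction with the smallest Fisher p, and the 10 strongest. Members and lists were chosen with earlier results of these data known. Promoter sequences came from RefSeq (GRCm38.p6), and other sequence and CpG ratios from GRCm38. Input and hematopoietic stem cell samples were not used here. Values of a few named items are not reported here.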

Additional observations from a re-analysis of the deposited data

Results flagged for a closer look

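In 18 groups of 6 libraries examined across 9 measures, 4 had a library whose gap to its nearest neighbour, as a share of the group's range, was above Dixon's 95% critical value, where chance alone singles out about 1 group in 20. The 18 include the diabetic groups for stimulated-only and unstimulated-only regions, which could not vary because their lists defined those regions. Diabetic library 3 had the highest distal share of its group, 44.33%, against 37.9% for the next library, and the largest mean promoter distance to its own group, 0.331. Control library 3 had the lowest share of genes with a promoter peak, 44.1%. Control library 5, labelled stimulated, held 35 of the 42 unstimulated-only regions, the most of its group, against 15 for the next library.

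Among the 40 groups of 6 rank scores at the 20 promoters with the smallest p, 3 had such a library. At Hook2, control library 1 had a rank score of 2.27, above the other control libraries. At Agpat1, control library 1 stood apart as well, at 5.71, while at Strap control library 3 was low, at 0.823. What sets these libraries apart was not tested.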

How the results depend on the processing

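Lists were also shortened to 10000 peaks, to the shortest list (52470 peaks) and left as deposited, peaks were ranked on fold, promoters were drawn at 500 and 2500 bp, distal regions at over 2500 bp, filters of 1 and 12 libraries and linear ranks were tried, and each library was left out in turn. Under these, the exact rank-sum test, the replicate block and list length as a covariate, limma called 0 promoters, with 215 to 784 at an unadjusted p under 0.05. It called 0 distal regions too, except 13 of 85994 with the lists as deposited (smallest adjusted p 1.64e-23). All 13 were higher in diabetic libraries and held by all 12, and 11 lay on the chromosome 6 stretch. Their own SD within groups was 1.93 to 3.64, whereas the spread limma assigned them was 0.42 to 0.68, and exact permutation tests gave p of 0.0541 to 0.227. Fisher's exact tests called 0 throughout, and in equal lists of 52470 peaks 1 distal region was held by all 6 diabetic and 0 control libraries and 1 the other way. With the lists as deposited, which are longer in controls, 1 promoter and 16 distal regions were held by all 6 control and 0 diabetic libraries. Without single libraries the separation ran from -0.0144 to 0.00647 for promoters and from -0.0258 to 0.00860 for distal regions, and the difference in distal share from -0.870 to 1.07 percentage points. With the lists as deposited that share differed by -3.63 percentage points (p = 0.242, exact permutation test). For the 20 promoters and 16 distal regions with the smallest p, 830 values under these alternatives included 0 of opposite sign, which their choice for large differences nearly fixed. Apart from linear ranks, 21 of the 36 moved by over 1.5 times under some alternative, such as Taf9b from -0.78 to -0.16 with 10000 peaks and to -1.79 on fold. Leaving out the 2 doubted unstimulated control libraries, a choice made after seeing the data, moved the count of same signs from 8 to 9. Counting a region as held by a summit inside it could change no value, because a merged region contains the summits of its own peaks.

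Same-numbered libraries were not paired by their labels, and the correlation of their deviations from the group means was 0.0123 to 0.0988 for promoters and -0.0423 to 0.234 for distal regions. Diabetic library 3 deviated most like control library 1 (0.412 and 0.561). With the replicate block limma called 0 promoters and 0 distal regions, with 391 and 152 at an unadjusted p under 0.05. Depth is unknown, and the shortened lists hold 11.3% to 38.1% of the deposited peaks, so promoters with weaker peaks, among them those of cytokine genes, were compared only in the longer lists.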
